A study of Homo sapiens with 6 samples.

Results

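The genes described here are the steroid receptors ESR1, ESR2, PGR, NR3C1 and NR3C2, the estrogen-related receptors ESRRA and ESRRG, and the estrogen-linked genes GREB1 and RERG. They are 9 of the 57341 genes in the deposited count table (coordinates on hg38), were taken by gene name, and all 9 passed the filter on low counts. The series holds RNA sequencing of 3 H295R libraries, the parental line, and of 3 H295R-PM-Ptc+ libraries. H295R is a human adrenocortical carcinoma line, and H295R-PM-Ptc+ cells are a small fraction of it that was sorted by flow cytometry for the Hedgehog receptor Ptch1 on the cell surface and expanded in culture. Neither group was treated, and both were grown in the same medium with NuSerum and insulin-transferrin-selenium supplements. The labels do not say whether replicates were separate cultures, so the p-values measure the spread between these libraries, which may be technical.

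Steroid receptors are transcription factors of the nuclear receptor family that bind DNA once a steroid has entered the cell and bound them. ESR1 and ESR2 encode estrogen receptors alpha and beta, PGR the progesterone receptor, NR3C1 the glucocorticoid receptor and NR3C2 the mineralocorticoid receptor. The adrenal cortex makes steroids itself, so its cells can be exposed to ligands of some of these receptors. GREB1 is a cofactor of the estrogen receptor whose gene is induced by estrogen in breast cancer cells, and RERG is a small GTPase related to RAS that was named as an estrogen-regulated growth inhibitor. ESRRA and ESRRG resemble the estrogen receptors but do not bind estrogen, and they drive genes of mitochondrial energy metabolism.

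Total counts lay between 23264403 and 25813247 per library. The group names of the deposited columns were opposite to those of the normalized values published beside the paper: each of those 6 columns had the same rank order, over the 942 genes that could be read, as a deposited column with the opposite group name but an equal number. Which set of names is right was not tested. PTCH1, the gene of the sorted protein, was at 21.3 ± 2.56 CPM (counts scaled to 1000000 counts of tested genes per library after TMM adjustment, SD, n = 3) in the libraries labelled H295R and at 12.2 ± 2.19 CPM in those labelled H295R-PM-Ptc+. PTCH1 was thus lower in the libraries named for the sorted cells, which goes against their label. All directions below are those of the libraries as labelled, and exchanging the names would turn each of them round. Of 10 markers of adrenocortical cells 8 had enough counts to be tested, among them NR5A1, STAR and CYP17A1 at over 100 CPM in every library, while MLANA was at 0 in all 6 and CYP11B1 had at most 3 counts. Of the 8, CYP21A2, a steroid 21-hydroxylase gene, was called, at 12.8 ± 2.19 and 23.5 ± 1.43 CPM (SD, n = 3 each, edgeR adjusted p = 0.00670), and with the replicate number as a block STAR was called higher (log2 fold change 0.41) and CYP11A1 lower (-0.24) as well. Over all tested genes 3.73% were called, and 22.5% with the block. Replicate 1 of both groups stood apart from replicates 2 and 3 along the second principal component of log2 CPM, which held 27.6% of the variance.

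Several response elements are named for these receptors, and the 7 of the 9 genes with an entry in the RefSeq table of start sites (GRCh38.p14) were searched for fixed letter patterns on both strands, within 5000 bases of each of 34 start sites. GREB1 and RERG were not among them. A pattern for the glucocorticoid response element, GNACA, any 3 bases and TGTNC, with N for any base, matched near ESR2 and NR3C2. The pattern lets the N positions differ, so that a match need not be a full inverted repeat. The matches are shown, with the matched stretch in capitals and 8 bases on each side, because receptors that are themselves members read this element.
ESR2, chr14:64296729-64296757, minus strand, intron: tgaaaagaGAACATGCTGTTCctgtgtgt
NR3C2, chr4:148443789-148443817, minus strand, intron: gcctttggGCACAGGGTGTCCcccggtcc

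The first lies 2339 bases before the nearest listed start of ESR2, and the second 889 bases after the nearest listed start of NR3C2. A match was found in the same windows for 13.4% of the 27305 genes in the table, and genes with many start sites have wider windows, so the matches are a description of the sequence and not of binding. The element of the estrogen-related receptors, TCAAGGTCA or its reverse complement TGACCTTGA, was found for 4103 of the 27305 genes and for ESR1, PGR, ESRRA and ESRRG among the 7. It is shown because its letters contain the core GGTCA that the estrogen receptors also read.
ESR1, chr6:151693258-151693282, plus strand, intron: gaaataatTCAAGGTCAgcaccaaa
ESR1, chr6:151802165-151802189, plus strand, intron: acaaaaacTCAAGGTCAggtgaaaa
PGR, chr11:101133091-101133115, minus strand, outside the gene: aaggactgTCAAGGTCAtcaaatac
ESRRA, chr11:64304870-64304894, plus strand, outside the gene: caccgcagTGACCTTGAgctttctc
ESRRG, chr1:216728260-216728284, minus strand, intron: tgggacatTGACCTTGAatgttttc

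The sites at PGR and ESRRA lie 3294 and 646 bases before the nearest listed start. No exact estrogen response element, the inverted repeat of GGTCA and TGACC with a spacer of 3 bases, was found in these windows for any of the 7 genes, and it was found for 1.11% of all genes in the table. The core alone, GGTCA or TGACC, is common, in 37.4% of all promoters of 300 bases and in 14 of the 34 of these genes. For the estrogen receptors, whose log2 fold changes had opposite signs, a promoter with the most copies of the core is shown (for ESR2 the lower by coordinate of 2 overlapping ones with equal copies), from 250 bases before to 50 bases after the start, with the core in capitals. In the counts of whole genes, transcripts from different starts cannot be told apart.
ESR2, chr14:64294322-64294621, minus strand: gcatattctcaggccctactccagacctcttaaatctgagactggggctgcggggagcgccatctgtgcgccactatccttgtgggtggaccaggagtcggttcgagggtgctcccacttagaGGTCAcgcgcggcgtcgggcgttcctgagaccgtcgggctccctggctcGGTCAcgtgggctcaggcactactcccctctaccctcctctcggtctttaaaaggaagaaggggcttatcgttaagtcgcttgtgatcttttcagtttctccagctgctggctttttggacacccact
ESR1, chr6:151690277-151690576, plus strand: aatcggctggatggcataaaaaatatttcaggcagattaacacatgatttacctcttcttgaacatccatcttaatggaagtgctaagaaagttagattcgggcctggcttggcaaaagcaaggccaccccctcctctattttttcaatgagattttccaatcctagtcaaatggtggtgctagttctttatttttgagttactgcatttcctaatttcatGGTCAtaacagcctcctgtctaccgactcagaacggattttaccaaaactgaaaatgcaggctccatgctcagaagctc

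The ESR2 promoter shown holds 2 copies of the core and the ESR1 promoter shown holds 1. The other listed promoters of ESR1 and some of those of ESR2 hold no copy.

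The comparison of the sorted population with its parental line asks how the RNA of the sorted cells differs. Of the 9 genes, RERG fell and ESR2 rose, as labelled, in H295R-PM-Ptc+ libraries by the edgeR quasi-likelihood test (adjusted p under 0.05 by Benjamini-Hochberg over the 16710 genes tested). RERG was 4.11-fold lower and ESR2 1.51-fold higher. ESR1, PGR, GREB1 and NR3C1 stood 1.19-fold to 1.27-fold lower and passed this limit only when the replicate number was in the model as a block. NR3C2, ESRRA and ESRRG passed in neither fit. Beside the 2 of 9 called here, 3.73% of all tested genes were called, 2.42% higher and 1.32% lower. With the replicate block 6 of 9 were called beside 22.5% of all genes, of which 1 was higher beside 12.1% and 5 lower beside 10.4%. The groups did not overlap in 5 of the 9 genes, ESR2, PGR, GREB1, NR3C2 and RERG, beside 23.5% of all tested genes.

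**Figure D1:**
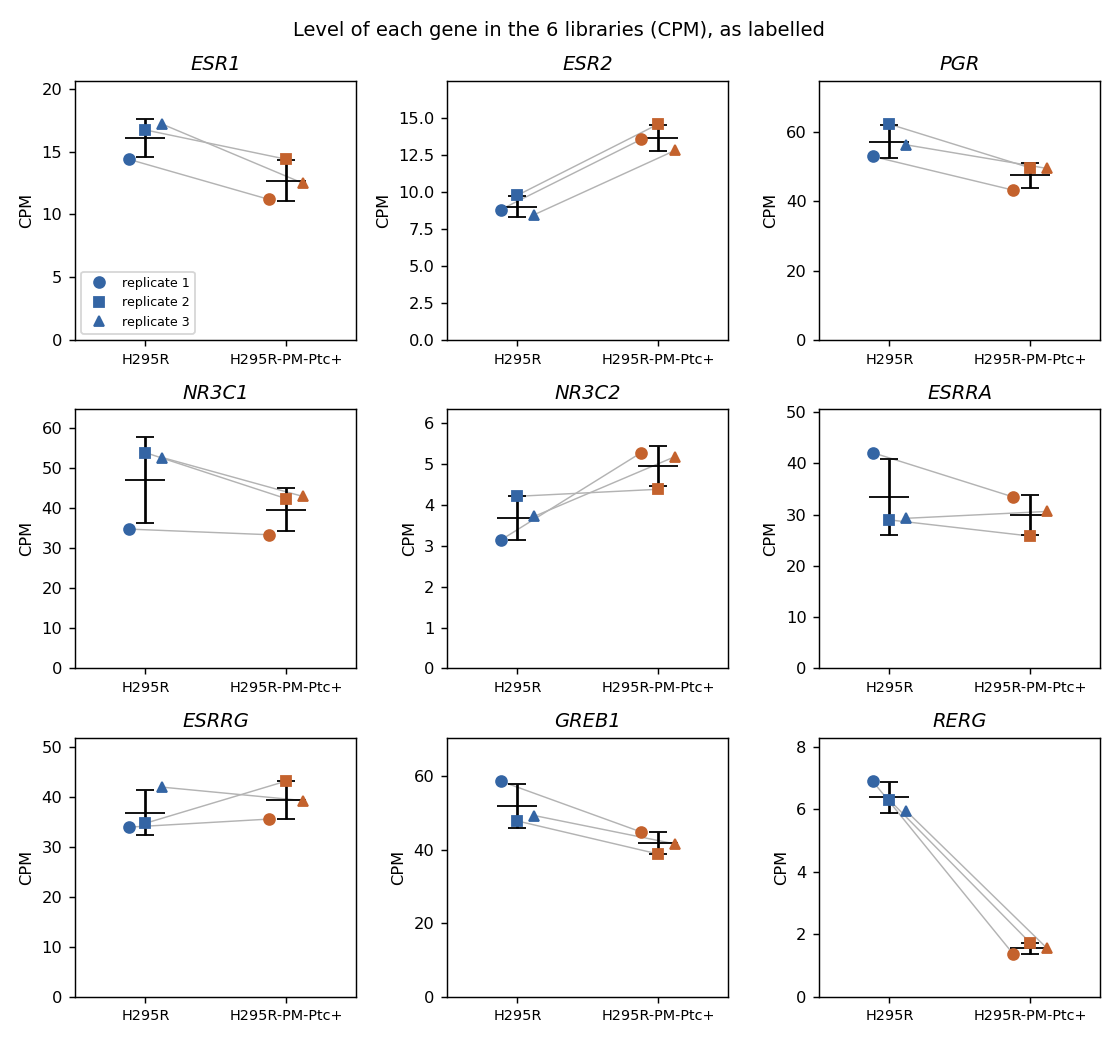
CPM of each gene (y axis, from 0) in the libraries labelled H295R (blue) and H295R-PM-Ptc+ (orange), with the symbol giving the replicate number, a grey line joining equal numbers, and bars for the mean and SD of 3 libraries. RERG falls from 5.95 to 6.91 CPM to 1.37 to 1.73 CPM, and ESR2 rises in all 3 pairs.

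RERG, on chromosome 12 from 15107783 to 15348675 on the minus strand, encodes the RAS-like growth inhibitor. It had 165, 160 and 147 counts in the libraries labelled H295R, which are 6.91, 6.30 and 5.95 CPM. Those labelled H295R-PM-Ptc+ held 35, 43 and 36 counts, or 1.37, 1.73 and 1.56 CPM. The lowest H295R library thus stood at more than 3 times the highest H295R-PM-Ptc+ library. On the log2 scale the fold change came to -2.04 (standard error 0.156, 95% interval -2.39 to -1.68, edgeR adjusted p = 3.93e-04), which ranked 84 by size among the 16710 genes. The log2 ratio within pairs of equal replicate number was -2.33, -1.86 and -1.93. Over the 6 fits that omit a library the log2 fold change lay between -2.12 and -1.96, and the adjusted p was at most 0.00385.

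The genes beside RERG were compared in the same fit. Of the 20 nearest tested genes, 10 on each side between 12927726 and 19720801 on chromosome 12, 17 had a log2 fold change below 0, with a median of -0.12, and none was called lower. The next tested gene on one side, ARHGDIB, rose by a log2 fold change of 1.34 (edgeR adjusted p = 0.0494), while EPS8 on the other side was at -0.11 (adjusted p = 0.645). No exon of RERG overlapped an exon of another gene, and its antisense gene RERG-AS1 had no counts in any library. The genes whose log2 CPM followed RERG most closely over the 6 libraries were STX2 (Pearson r = 0.999), SEPT6 (0.999) and GPC4 (0.995). In all, 225 genes had an r above 0.95 with RERG, and the 6 points share the split between the groups.

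ESR2, on chromosome 14 from 64084232 to 64338112 on the minus strand, encodes estrogen receptor beta. Its counts were 210, 248 and 209 in the libraries labelled H295R, at 8.79, 9.76 and 8.45 CPM. The libraries labelled H295R-PM-Ptc+ held 346, 362 and 296 counts, at 13.5, 14.6 and 12.8 CPM, so that each of these stood above every H295R library. The difference in ESR2 was 0.60 on the log2 scale (standard error 0.107, 95% interval 0.36 to 0.84, edgeR adjusted p = 0.0188) while the ratios within the 3 pairs were close to each other, at 0.62, 0.58 and 0.60 (log2). The call was lost in 4 of the 6 fits that omit a library: the adjusted p was 0.104 when H295R replicate 3 was omitted, and 0.0508, 0.0902 and 0.0599 when H295R-PM-Ptc+ replicates 1, 2 and 3 were, at log2 fold changes of 0.54 to 0.63. Its 20 neighbors had a median log2 fold change of -0.10. Of these, 16 were below 0, 1 was called lower and none was called higher. Of its exon bases 5.60% also belong to RP11-544I20.2, a gene on the same strand with 76 counts in all libraries labelled H295R and 65 in the others. STX11, USP51 and SYTL3 followed ESR2 most closely over the 6 libraries (r = 0.994, 0.992 and 0.992), among 173 genes with an r above 0.95.

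ESR1, on chromosome 6 from 151656691 to 152129619 on the plus strand, encodes estrogen receptor alpha. It was at 14.4, 16.7 and 17.2 CPM in the libraries labelled H295R, from 344, 425 and 425 counts. In those labelled H295R-PM-Ptc+ it was at 11.2, 14.4 and 12.5 CPM, from 286, 358 and 289 counts. The groups met at a single point, H295R replicate 1 and H295R-PM-Ptc+ replicate 2, while in all 3 pairs the H295R-PM-Ptc+ library was the lower. The log2 fold change was -0.34 (standard error 0.122, 95% interval -0.62 to -0.07) with an edgeR adjusted p of 0.182, and of 0.00640 with the replicate block.

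The balance of the estrogen receptors can be read within each library, where it does not depend on the scaling of the libraries. Per base of exon, ESR1 stood at 1.12, 1.17 and 1.39 times the level of ESR2 in the libraries labelled H295R. In those labelled H295R-PM-Ptc+ the ratio was 0.566, 0.678 and 0.669. ESR1 was thus the more abundant of the pair in every library of one group and the less abundant in every library of the other. The log2 ratio was 0.29 ± 0.16 and -0.65 ± 0.14 (SD, n = 3 each), a difference of -0.95 or 1.93-fold (exact permutation test, two-sided, p = 0.1, the smallest that 3 against 3 can give). The size of the exon models sets where the ratio crosses 1, but not the difference between the groups.

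**Figure D2:**
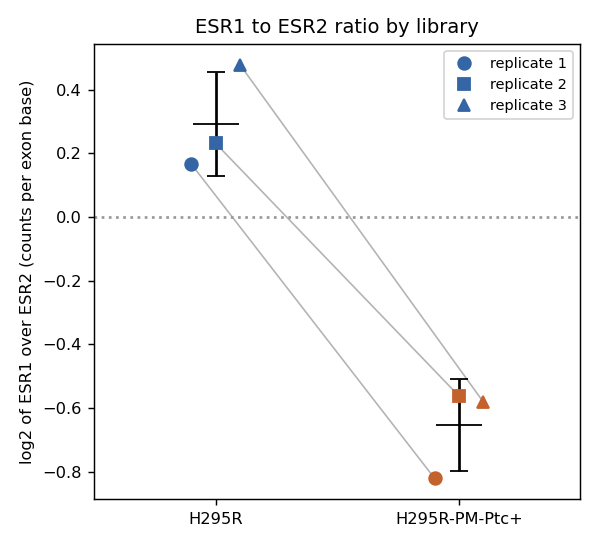
Log2 of the ESR1 to ESR2 ratio per exon base (y axis) in each library by group, with the mean and SD, lines joining equal replicate numbers and a dotted line at equal levels. The 3 libraries labelled H295R lie above 0, at 0.17 to 0.48, and the 3 labelled H295R-PM-Ptc+ below it, at -0.82 to -0.56.

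PGR and GREB1 are among the classical genes induced through the estrogen receptor. PGR, on chromosome 11 from 101029624 to 101130524 on the minus strand, was at 53.0, 62.3 and 56.3 CPM in the libraries labelled H295R and at 43.2, 49.7 and 49.5 CPM in those labelled H295R-PM-Ptc+. The groups did not overlap, and the log2 fold change was -0.27 (standard error 0.0909, 95% interval -0.47 to -0.06, edgeR adjusted p = 0.161, and 0.00169 with the replicate block). GREB1, on chromosome 2 from 11534116 to 11642788 on the plus strand, was at 58.6, 47.8 and 49.3 CPM in the H295R libraries. It had 1145, 965 and 962 counts in the H295R-PM-Ptc+ libraries against 1401, 1214 and 1218, with group means of 51.9 and 41.7 CPM. Here too the groups lay apart, with replicate 1 the highest in each. GREB1 differed by -0.31 on the log2 scale (standard error 0.0989, 95% interval -0.54 to -0.09, edgeR adjusted p = 0.131, and 6.44e-04 with the block).

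The receptors of the adrenal steroids were at unequal levels. NR3C1, on chromosome 5 from 143277931 to 143435512 on the minus strand, was at 34.8, 53.9 and 52.7 CPM in the libraries labelled H295R and at 33.4, 42.4 and 43.0 CPM in those labelled H295R-PM-Ptc+. Replicate 1 was the lowest in each group, by more than the groups differed within that pair, whose log2 ratio was -0.06 against -0.35 and -0.29 in the other pairs. The log2 fold change of NR3C1 was -0.25 (standard error 0.168, 95% interval -0.63 to 0.13, edgeR adjusted p = 0.506, and 0.0109 with the replicate block at -0.24). Omitting 1 library gave values from -0.43, when it was H295R replicate 1, to -0.15, when it was H295R replicate 2.

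NR3C2, on chromosome 4 from 148078762 to 148444698 on the minus strand, had 75, 107 and 92 counts in the libraries labelled H295R, at 3.14, 4.21 and 3.72 CPM. The other libraries held 135, 109 and 120 counts, at 5.28, 4.38 and 5.18 CPM. The groups lay apart by a narrow gap, between H295R replicate 2 and H295R-PM-Ptc+ replicate 2, and the log2 ratio of the pairs ran from 0.06 to 0.75. The log2 fold change was 0.42 (standard error 0.158, 95% interval 0.06 to 0.78, edgeR adjusted p = 0.210, and 0.0525 with the replicate block), so that neither fit called it.

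The estrogen-related receptors showed the smallest differences among the 9 genes. ESRRA, on chromosome 11 from 64305572 to 64316743 on the plus strand, was at 42.1, 29.0 and 29.3 CPM in the libraries labelled H295R and at 33.4, 25.8 and 30.6 CPM in the others. Replicate 1 was the highest in both groups, and the log2 fold change of -0.16 (95% interval -0.51 to 0.20, edgeR adjusted p = 0.690) turned to 0.039 without H295R replicate 1. Its exons share 9.37% of their bases with TRMT112 on the opposite strand, a gene with 10054 counts in the libraries labelled H295R and 9445 in the others, and the counting is stated to have used strand. The library kit is named differently in the methods and the labels, and whether the strand setting fits it was not tested. Both pseudogenes ESRRAP1 and ESRRAP2 had 0 counts. ESRRG, on chromosome 1 from 216503246 to 217137755 on the minus strand, was at 33.9, 34.7 and 41.9 CPM against 35.6, 43.2 and 39.3 CPM, ranges that overlap. Its log2 fold change was 0.09 (95% interval -0.15 to 0.34, edgeR adjusted p = 0.744), and with the block neither receptor was called (0.152 for ESRRA and 0.364 for ESRRG). Omitting 1 library gave values for ESRRG from 0.020, when it was H295R-PM-Ptc+ replicate 2, to 0.18, when it was H295R replicate 3.

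**Figure D3:**
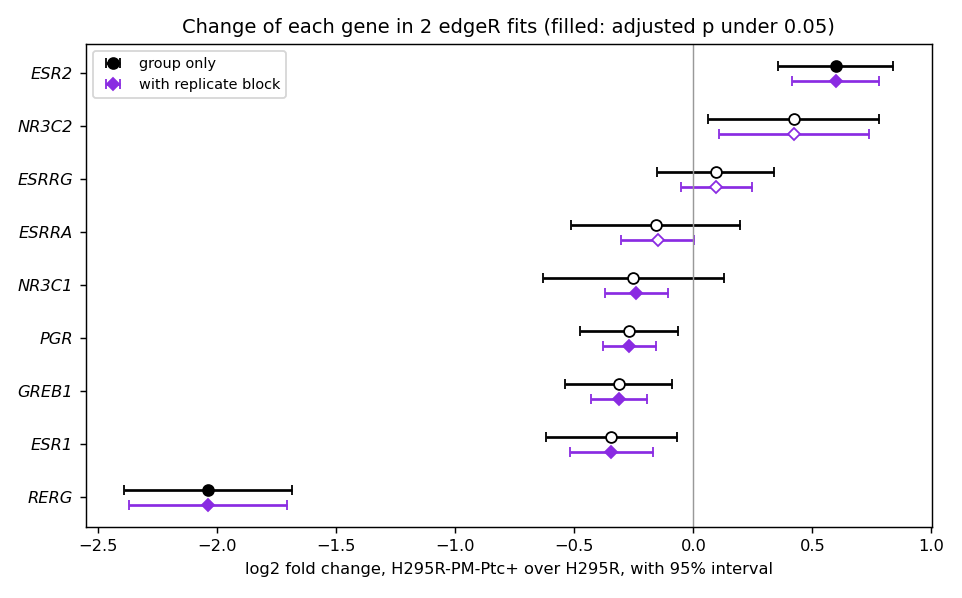
Log2 fold change of each gene (x axis, libraries labelled H295R-PM-Ptc+ over H295R) with its 95% interval in the fit on the group alone (black) and with the replicate block (purple), filled where the adjusted p is under 0.05. RERG at -2.04 and ESR2 at 0.60 are filled in both fits, and the 4 genes from -0.34 to -0.25 in the fit with the block only.

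Per kilobase of exon, the levels were set in order between genes. The length is that of all annotated exons of a gene. Which transcripts these cells express was not tested, so the order also depends on that length. In the libraries labelled H295R, ESRRA came first at 11.0 CPM per kb and NR3C1 next at 5.14, followed by GREB1 (4.21), PGR (3.74) and ESRRG (3.38). From NR3C1 to ESRRG each gene overlapped its neighbor in the order, so that these 4 could not be ranked beyond the spread of the libraries. Below them stood RERG (1.54), ESR1 (1.18), ESR2 (0.964) and NR3C2 (0.559 CPM per kb), each below the range of the gene before it. As for the H295R-PM-Ptc+ libraries, ESRRA and NR3C1 again led, at 9.89 and 4.32 CPM per kb (the range of NR3C1 overlapped that of ESRRG at 3.60), but RERG had passed from the sixth place to the last, at 0.373, and ESR2 at 1.46 stood above ESR1 at 0.931. Against all tested genes, these length-scaled levels were low to middling, from the 17.7th percentile for NR3C2 to the 71.3rd for ESRRA.

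**Figure D4:**
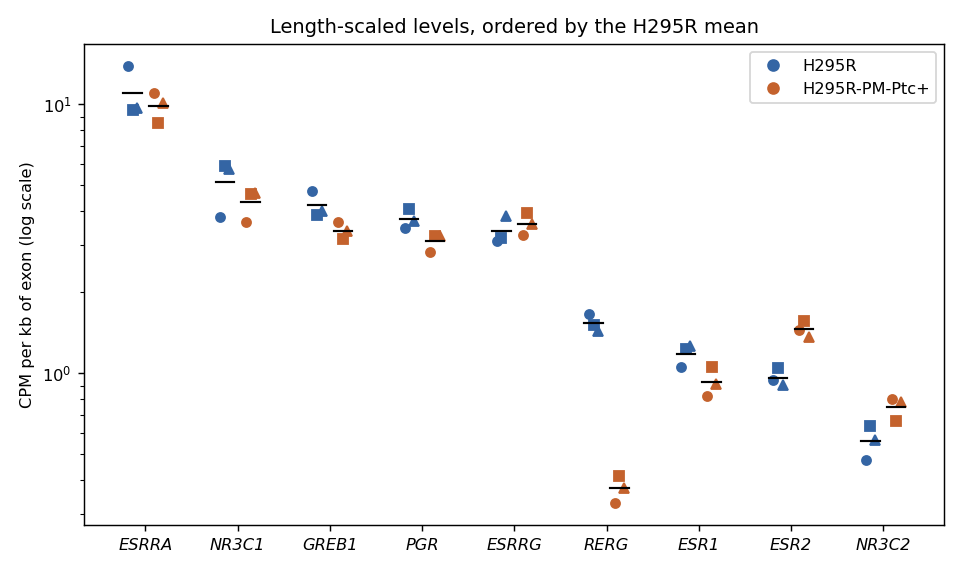
CPM per kilobase of exon (y axis, log scale) of the 9 genes in each library, blue for H295R and orange for H295R-PM-Ptc+, with a bar at each mean and genes ordered by the mean of the libraries labelled H295R. ESRRA is the highest in both groups, and RERG drops below NR3C2 in the H295R-PM-Ptc+ libraries.

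The rest of the nuclear receptor family gave a background for the 7 receptors. Of the 41 other human nuclear receptors, 31 had enough counts and none had an adjusted p under 0.05 by edgeR. An unadjusted p under 0.05 by edgeR was reached by 5, beside 17.3% of all tested genes. Among the 31, limma-voom called none and DESeq2 called 2, and the shares of all tested genes called by these tools are not given. The median log2 fold change of the 31 was -0.10, beside 0.00 over all tested genes and -0.25 over the 9 genes, in which 6 were below 0. NR1D1, a clock repressor at 0.49, and THRB, a thyroid hormone receptor at -0.64 (log2), are named after their values were seen, as the 2 that DESeq2 called (adjusted p = 0.0212 and 0.0394, against 0.0709 and 0.0904 by edgeR). With the replicate block 9 of the 31 were called, 3 higher and 6 lower, beside 22.5% of all tested genes. ESRRB, the remaining estrogen-related receptor, had between 5 and 14 counts and was not tested.

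Each of the 3 lists of receptor target genes held 1 called gene, beside 3.73% called over all tested genes, and the medians of the lists lay on both sides of 0. Of 20 estrogen target genes other than PGR and GREB1, 13 were tested, with a median log2 fold change of 0.14, and 1 was called: MYB, a transcription factor gene, rose from 164, 220 and 192 counts to 366, 372 and 294, at 0.85 on the log2 scale (edgeR adjusted p = 0.00671, at most 0.0449 when a library was omitted). With the replicate block 4 were higher and 2 lower, beside 12.1% and 10.4% of all tested genes. TFF1 and CXCL12, which estrogen induces in breast cancer cells, had 0 counts in all 6 libraries.

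Of 16 glucocorticoid target genes, 13 were tested, with a median of -0.03. CEBPD, which encodes a CCAAT-binding transcription factor, was the one called, at 5.46 ± 1.36 and 11.1 ± 1.71 CPM (SD, n = 3 each) and a log2 fold change of 1.02 (edgeR adjusted p = 0.0249). It stayed under the limit in 1 of 6 fits that left out a library each, the one without H295R replicate 1, and reached at most 0.0773. FKBP5, TSC22D3 and the other genes of the list were not called, and with the block 4 were higher and 1 lower, beside the same shares of all tested genes.

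Of 10 genes of mineralocorticoid action, 7 were tested, with a median log2 fold change of 0.18, and with the block 3 were called, all 3 higher, beside 12.1% of all tested genes. SCNN1A, which encodes a subunit of the epithelial sodium channel, rose: its counts were 105, 80 and 75 in the libraries labelled H295R and 269, 208 and 240 in those labelled H295R-PM-Ptc+, or 4.39, 3.15 and 3.03 CPM against 10.5, 8.37 and 10.4 CPM. The groups lay far apart, the log2 fold change was 1.47 (standard error 0.173, edgeR adjusted p = 0.00231) and the adjusted p was at most 0.0184 over the fits that omit a library. The other channel subunits SCNN1B and SCNN1G had too few counts to be tested, at most 11 in a library.

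Among 21 coregulators, partner factors and chaperones of the receptors, 20 were tested, with a median of 0.07. TFAP2A, which encodes the partner factor AP-2 alpha, fell from 78, 69 and 81 counts to 44, 36 and 24, at -1.13 on the log2 scale (edgeR adjusted p = 0.0225). Its adjusted p passed in 2 of 6 fits that left out a library each and reached 0.0925 without H295R replicate 3. With the block 6 of the list were higher and 2 lower (12.1% and 10.4% over all tested genes), the higher ones including the coactivator gene NCOA3, named after its values were seen (log2 fold change 0.46, adjusted p = 9.69e-06 with the block and 0.0856 without it).

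None of the 13 tested partners and targets of the estrogen-related receptors was called by edgeR, with 1 at an unadjusted p under 0.05 (17.3% over all tested genes) and a median of -0.12. That gene, PDK4, likewise named afterwards, restrains the use of glucose in mitochondria and was called by DESeq2 (adjusted p = 0.0105, log2 fold change -0.31), and limma-voom called none. With the block 6 were called, all 6 lower, beside 22.5% called and 10.4% called lower over all tested genes. Of 11 relatives of RERG and GREB1, 9 were tested and RASL11A, a RAS-like GTPase gene, was called, higher at a log2 fold change of 1.70 (edgeR adjusted p = 0.0357) from 7, 14 and 6 counts to 37, 31 and 20, beside 2.42% of all tested genes called higher. With the block 1 of the 9 was called, beside 22.5%. The adjusted p of RASL11A rose to 0.141 without H295R replicate 3 and passed in 1 of the 6 fits that left out a library. With shrunken DESeq2 fold changes its log2 fold change was 0.55. The fit that asked for 10 counts in every library did not test it.

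**Figure D5:**
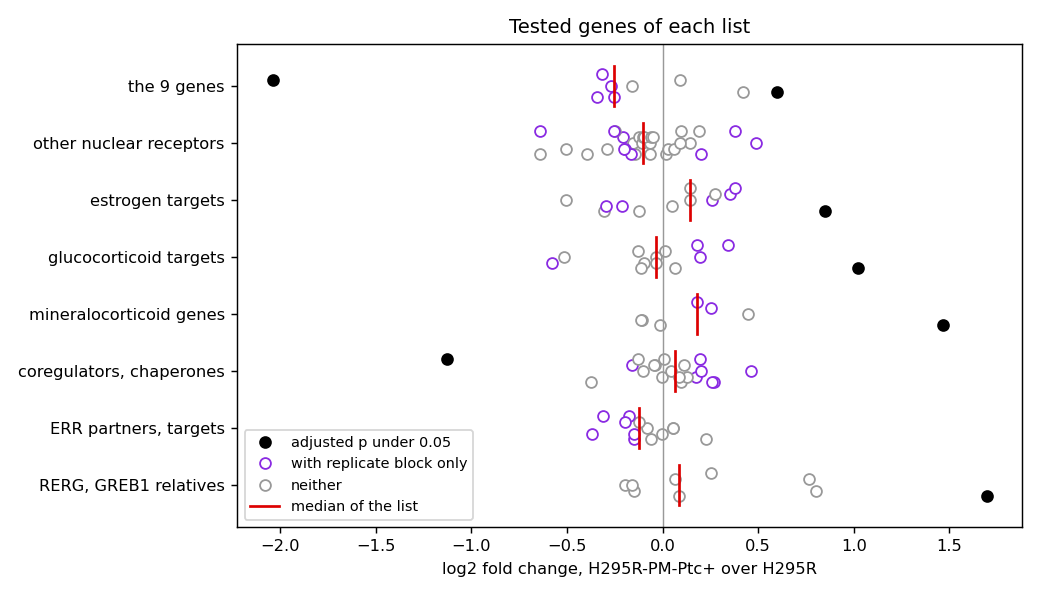
Log2 fold change (x axis) of every tested gene in each list, black where the adjusted p is under 0.05, purple where it is so with the replicate block only, grey otherwise, with a red bar at the list's median. The medians lie between -0.25 and 0.18, and RERG at -2.04 is the farthest from 0.

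Markers of other cell types were counted beside these results. The summed level of 7 markers of mammary-type epithelium lay between 5.94 and 8.25 CPM in the libraries labelled H295R and at 12.7 CPM or above in the others, with TFF1 at 0 throughout, and 3 of the 4 tested ones were called higher, the keratin genes KRT8 and KRT18 and the adhesion gene EPCAM (log2 fold changes 2.11, 1.30 and 0.92), beside 2.42% of all tested genes. The fourth, GATA3, was at -0.0044, KRT19 was at 0 in every library and CDH1 had at most 5 counts. The sum over 6 fibroblast markers was 8.19 to 9.38 CPM against 9.27 to 11.2 CPM, 4 chromaffin markers summed to 0.787 to 0.809 against 1.04 to 1.53, 4 immune markers to 0.607 to 1.14 against 1.06 to 1.29, and 4 endothelial markers stayed at or below 0.274 CPM in every library. The part of these markers in the results above was not tested. In RNA of whole cultures, fewer cells that express a gene and less RNA per cell cannot be told apart.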

How the data were processed

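Stranded libraries of 3 H295R and 3 H295R-PM-Ptc+ samples were read from both ends. Alignment by the authors used STAR 2.4.0a and hg38, and featureCounts summed fragments by gene name on an Ensembl GRCh38 annotation, counting multiply mapped reads at their primary position. The authors deposited raw counts, one column per library. The 1 row without a gene name held 0 counts and was left out.

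Genes were filtered with filterByExpr (16710 kept), library sizes were summed over these genes and scaled with TMM factors, and the test was that of edgeR 4.0.16, run in R 4.3.3 (glmQLFit, glmQLFTest, group as the only term, two-sided, Benjamini-Hochberg over all tested genes). Standard errors and 95% intervals came from the same fit and cover the spread between libraries. The alternatives were a replicate block, DESeq2 1.42.0, limma-voom (limma 3.58.1), other size factors and filters, and each library left out. Equal replicate numbers were taken as pairs. The deviations from the group means of log2 CPM correlated at 0.497, 0.307 and 0.228 for equal numbers. For unequal numbers the correlation ran from -0.352 to 0.150. It was 0.150 for H295R replicate 3 with H295R-PM-Ptc+ replicate 2, and 0.109 for H295R replicate 2 with H295R-PM-Ptc+ replicate 3. Replicates 2 and 3 are thus only weakly told apart. Tests were tried on simulated counts. The genes, lists and motifs were chosen with earlier results of these data known. Named were all 9 genes, the called genes of each list and the 3 closest correlates of RERG and ESR2. Other genes named (neighbors, marker genes and list genes that the main test did not call) were chosen after their values were seen. Two-group tests of single values were exact permutation tests (SciPy 1.17.1).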

Additional observations from a re-analysis of the deposited data

How the results depend on the processing

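With the replicate block, which rests on the pairing of equal replicate numbers, 6 of the 9 genes were called instead of 2, and 36 genes of the other lists instead of 5, while the share over all tested genes went from 3.73% to 22.5%. The lists also gave 10 called genes with DESeq2, with or without shrunken fold changes, and 10 with no filter on low counts. Leaving out 1 library at a time gave 1 to 2 called genes among the 9 and 2 to 5 among the lists. The share of all tested genes called is not given for DESeq2, for the fit without the filter or for those that omit a library. Changes in these counts can therefore not be told from a general change in the number of calls. RERG was called in every one of these fits, and ESR2 in all but the 4 named above. With shrunken DESeq2 fold changes the log2 fold change of RERG was -1.40, against -2.04 in the main fit. The log2 fold change of ESRRA was -0.26 to 0.039 with a library left out and reversed, to 0.039, without H295R replicate 1. No other direction among the 9 changed. The difference in the ESR1 to ESR2 ratio was -0.95 within pairs (exact permutation, p = 0.25, the smallest that 3 pairs can give), -0.94 with 1 count added to each gene, and -1.01 to -0.85 with a library left out. With 35 to 43 counts in each H295R-PM-Ptc+ library, RERG had the fewest counts of the 9 genes.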
